A study of Mus musculus with 12 samples.

Results

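The genes described here are 49 protein-coding splicing factor genes of the mouse, among 22141 genes to which the deposited transcript counts could be assigned. They were chosen by symbol, with earlier results of these data known. The set holds 11 SR genes (Srsf followed by a number), 20 hnRNP genes and 18 other factors. Those others are Celf1 to Celf6, Tra2a, Tra2b, Rbfox1, Rbfox2, Nova1, Nova2, Elavl4, Ptbp1, Ptbp2, Srrm3, Srrm4 and Rbm4. All 49 passed the filter on low counts. The RNA came from islets of Langerhans, small endocrine organs of the pancreas made largely of insulin-secreting beta cells, taken from wild-type male mice aged 10 to 12 weeks. Islets were cultured in lots of about 120 with 3 libraries for each of 4 treatments: vehicle alone, C3a in vehicle (called vehicle with C3a), palmitate alone, or palmitate together with C3a. Palmitate is a saturated fatty acid used to stress beta cells, and C3a is a fragment of complement component C3 that signals through a receptor on the cell surface. No transgene or deletion was used, and the labels give neither the dose nor the duration of the treatments. Separate animals or cultures are not stated for the replicates, and the p-values therefore reflect the scatter of these 12 libraries, which may be technical.

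SR proteins bind exonic sequences and recruit the spliceosome, while many hnRNP proteins bind the same transcripts and repress exon use. Their own genes are commonly held in check by poison exons, cassette exons with an early stop codon that send the transcript to nonsense-mediated decay. Islet endocrine cells share with neurons a set of splicing regulators, among them Elavl4, Nova, Rbfox, Celf, Ptbp2 and Srrm proteins, that set neuronal-type isoforms of secretory and channel genes.

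Poison exons of 3 genes are shown because the results on decay transcripts turn on them. The sequences were read from the GENCODE M21 annotation on GRCm38, from the first base of the extra exon to its in-frame stop codon, which is in capitals. The Srsf3 segment is chr17:29039454-29039487 on the plus strand, the start of a 456-base exon 4 of transcript Srsf3-201. The Srsf6 segment is chr2:162932815-162932966 on the plus strand, the start of a 268-base exon 3 of Srsf6-201. The Tra2b segment is chr16:22259181-22259261 on the minus strand, the start of a 276-base exon 2 of Tra2b-206.
Srsf3-201: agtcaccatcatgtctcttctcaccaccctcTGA
Srsf6-201: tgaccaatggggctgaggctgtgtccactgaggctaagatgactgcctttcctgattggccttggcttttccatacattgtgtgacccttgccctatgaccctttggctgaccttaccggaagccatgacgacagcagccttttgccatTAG
Tra2b-206: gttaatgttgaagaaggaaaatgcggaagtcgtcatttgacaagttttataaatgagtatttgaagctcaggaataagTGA
Each of these transcripts has more exons after the stop, 3 in Srsf3-201, 4 in Srsf6-201 and 8 in Tra2b-206. The main coding transcripts Srsf3-202, Srsf6-203 and Tra2b-204 lack the exon.

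Total counts ran from 22216420 to 26110989 in the 4 libraries of batch 1 (replicate 1 of each group) and from 35876350 to 50264695 in the 8 libraries of batch 2. All 8 beta cell markers searched were present, with a summed level of 133000 to 191000 CPM (counts scaled to the size of the library) over the 12 libraries. No marker of any cell type searched was at 0 in all libraries.

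Levels between genes were compared as TPM, which scales counts by transcript length as well as library size. In vehicle islets, Hnrnpa2b1 was highest at 437 ± 13.8 TPM (SD, n = 3), followed by Hnrnpk at 370 ± 17.3 TPM. Both encode abundant nuclear RNA-binding proteins. Hnrnpab (189 ± 57.7 TPM), Hnrnpa3 (189 ± 68.8 TPM) and Hnrnpf (188 ± 11.4 TPM) came next and did not differ beyond their spread. Srsf5 led the SR genes at 166 ± 45.3 TPM, ahead of Srsf6 at 84.8 ± 13.0 TPM. Srsf12 lay far below the other SR genes at 1.53 ± 0.409 TPM.
Among the other factors, Ptbp1 (140 ± 13.8 TPM), the broadly expressed polypyrimidine tract binder, and Celf3 (139 ± 0.526 TPM), a neuronal-type CELF protein, could not be told apart. Ptbp2, the neuronal counterpart of Ptbp1, stood at 7.07 ± 0.176 TPM. Elavl4 stood at 19.2 ± 1.86 TPM and Rbfox2 at 32.5 ± 3.45 TPM. The lowest levels were those of Nova2 (2.78 ± 0.379 TPM), Srrm4 (2.68 ± 0.499 TPM), Nova1 (1.97 ± 0.192 TPM), Celf5 (0.44 ± 0.0673 TPM) and Rbfox1 (0.287 ± 0.0863 TPM). Nova2 and Srrm4 did not differ beyond their spread.

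**Figure D1:**
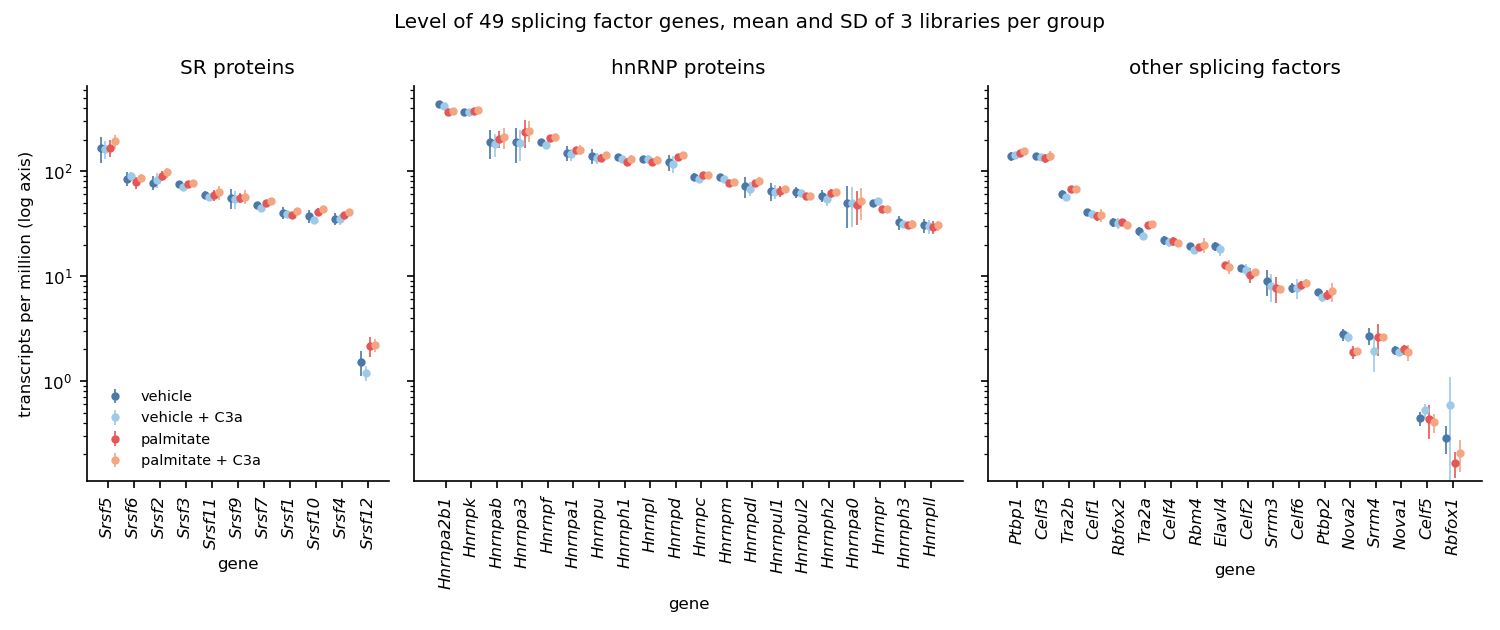
Level of each gene in TPM (log axis), as mean and SD of 3 libraries in each of the 4 groups, with genes ordered by their vehicle mean. Hnrnpa2b1 and Hnrnpk lie highest, and Celf5 and Rbfox1 lowest. For Rbfox1 in vehicle with C3a the lower SD bar runs to the edge of the log axis.

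The first comparison asked how palmitate changed these genes. Averaged over islets without and with C3a, 14 of the 49 genes rose and 9 fell at an adjusted p under 0.05 (edgeR), 46.9% of them, against 39.7% of the 15794 genes tested (20.3% rose and 19.4% fell). The median log2 fold change was 0.01 over the 49 genes and -0.00138 over all genes tested. The separate effects rest on different libraries. Palmitate against vehicle called 7 genes higher and 6 lower (25.4% of all genes tested were called, 13.4% higher and 12.0% lower), and palmitate with C3a against vehicle with C3a called 11 higher and 7 lower (26.9% of all genes, 13.8% higher and 13.1% lower). Of the 49 genes, 12 were called in both in the same direction, against 20.7% of all genes tested: Hnrnpa3, Hnrnpab, Hnrnpd, Hnrnpf, Tra2a and Tra2b higher, and Elavl4, Nova2, Hnrnpr, Hnrnpa2b1, Hnrnpm and Hnrnpul2 lower. Leaving out each library in turn, 6 of the 12 kept both calls (Hnrnpa3, Hnrnpf, Tra2b, Elavl4, Nova2 and Hnrnpr), and Hnrnpab, Hnrnpd, Tra2a, Hnrnpa2b1, Hnrnpm and Hnrnpul2 lost one or both without at least 1 library.
The counts of the separate effects move with single libraries. Higher genes in palmitate against vehicle were 3 in place of 7 without vehicle replicate 1 or without palmitate replicate 3. In the pair with C3a, higher genes were 6 without vehicle with C3a replicate 1 or 2, and 7 without its replicate 3 or without palmitate with C3a replicate 1 or 3. Lower genes there were 3 without vehicle with C3a replicate 1, and 4 without its replicate 3 or without palmitate with C3a replicate 1 or 2.
In batch 2 alone, 11 of the 49 genes rose and 6 fell, against 28.4% of the 15552 genes tested there. Of the 23 genes called over all libraries, Srsf4, Srsf6, Hnrnpdl, Hnrnph1, Celf2 and Ptbp1 did not pass in batch 2. Batch 1 holds 2 palmitate and 2 vehicle libraries and gave no test. In bulk RNA of islets, fewer cells of a type and less RNA per cell cannot be told apart.
These genes also differed between the sequencing batches, of which every group holds the same share. Batch 1 is replicate 1 of each group and has the smaller total counts. Sequencing, replicate set and depth therefore cannot be told apart. Of the 49 genes, 27 were higher and 4 lower in batch 2 than in batch 1 at an adjusted p under 0.05 (edgeR). Of all genes, 35.7% were called in either direction. In 31 of the 49 the batch difference was larger than the palmitate difference, which was not counted over all genes. A batch difference of at least 2-fold was found in 1 of the 49 and in 7.0% of all genes. Hnrnpa0, an intronless A/B-type hnRNP gene, had 48.9 to 54.3 CPM in the 4 libraries of batch 1 and 105 to 119 CPM in the 8 of batch 2, a difference of 1.11 ± 0.04 on the log2 scale, with a palmitate effect of -0.00192 ± 0.0388. Hnrnpa3, Hnrnpd and Hnrnpab followed with 0.64, 0.60 and 0.58.

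**Figure D2:**
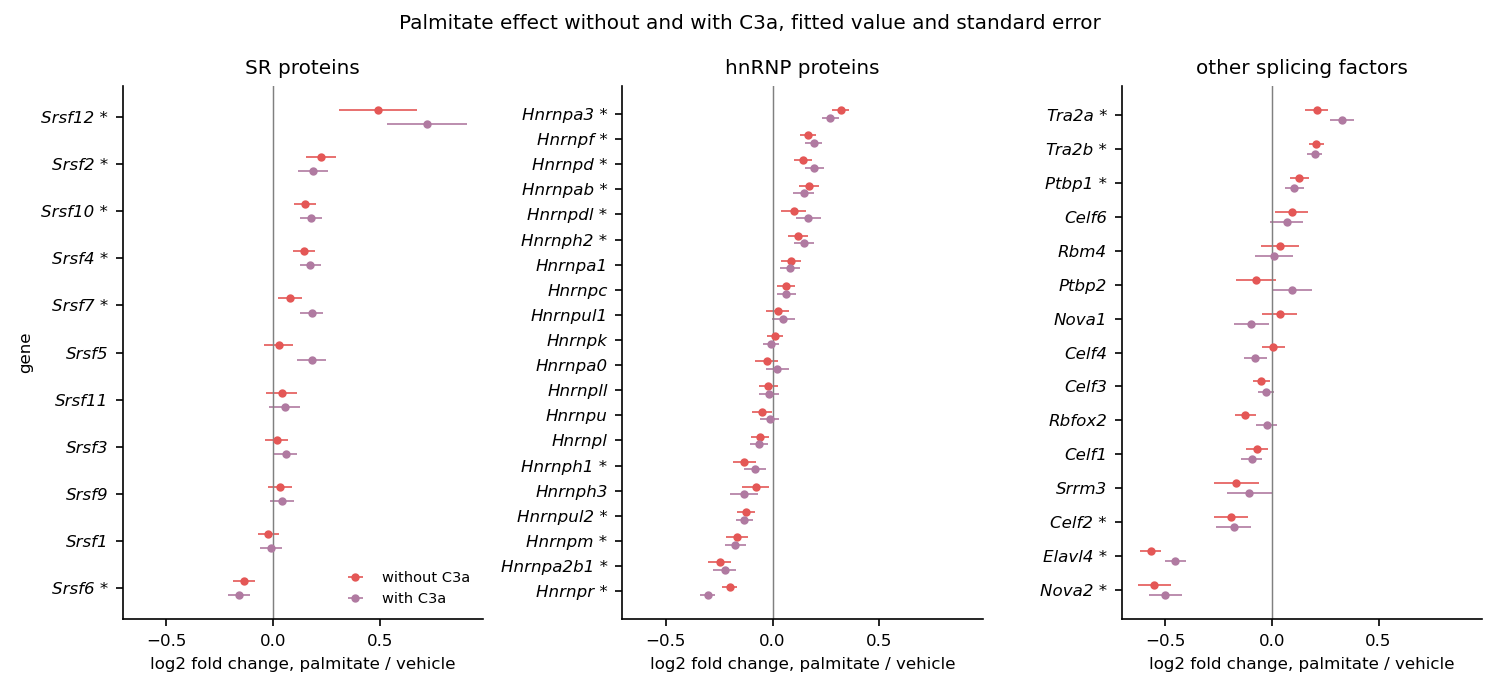
Fitted log2 fold change of palmitate over vehicle with its standard error, without C3a and with C3a, for 46 of the 49 genes by family. An asterisk marks genes called in the average of both effects. Elavl4 and Nova2 lie lowest and Srsf12 highest. Celf5, Rbfox1 and Srrm4, with standard errors of 0.17, 0.38 and 0.28 for the average, are left out for scale.

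Of the 11 SR genes, 5 rose, 1 fell and 5 did not pass, with a median log2 fold change of 0.10. That is 54.5% called, where 39.7% of all genes tested were called (20.3% higher and 19.4% lower). The separate effects gave fewer calls. Palmitate against vehicle called only Srsf2, 9.09% of the SR genes against 25.4% of all genes. The pair with C3a called 4 higher and 1 lower, 45.5% against 26.9% of all genes. No SR gene was called in both. Srsf12 (chr4:33208991-33233340), an SR protein that can act against exon inclusion, measured 1.78, 1.73 and 2.36 CPM in the vehicle libraries, and those of vehicle with C3a gave 1.62, 1.88 and 1.57 CPM. With palmitate it had 3.04, 2.89 and 2.38 CPM, and 2.66, 3.10 and 2.64 CPM with palmitate and C3a. The 6 palmitate libraries lay above the 6 vehicle libraries, although vehicle replicate 3 and palmitate replicate 3 were close. On the log2 scale the rise was 0.61 ± 0.13 (SE, adjusted p from edgeR = 0.00300), at a level near that of the least abundant genes.
Srsf2 (chr11:116849901-116853094), which binds exonic enhancers of many cassette exons, had 83.7, 110 and 95.2 CPM in vehicle, 87.6, 119 and 108 CPM in vehicle with C3a, 91.6, 125 and 122 CPM in palmitate, and 102, 117 and 138 CPM in palmitate with C3a. The groups overlapped, with replicate 1 lowest in each, and 5 of 6 same-numbered pairs were higher with palmitate. The rise was 0.20 ± 0.05 (adjusted p = 0.00653).
Srsf10 (chr4:135855747-135869908), a splicing repressor when dephosphorylated, had 64.1, 72.6 and 71.2 CPM in vehicle, 61.1, 68.1 and 70.5 CPM in vehicle with C3a, 68.2, 82.7 and 80.1 CPM in palmitate, and 71.1, 72.3 and 82.0 CPM in palmitate with C3a. It rose by 0.16 ± 0.04 (adjusted p = 0.00367), in 6 of 6 pairs, with overlapping ranges. Srsf4 had 43.8, 51.0 and 51.1 CPM in vehicle, 45.1, 51.7 and 52.4 CPM in vehicle with C3a, 51.2, 54.7 and 55.6 CPM in palmitate, and 56.4, 55.6 and 56.4 CPM in palmitate with C3a. It rose by 0.16 ± 0.04 (adjusted p = 0.00385), also in 6 of 6 pairs, but in batch 2 alone the value was 0.11 ± 0.04 (adjusted p = 0.0613).
Srsf7 had 76.4, 75.3 and 71.2 CPM in vehicle, 71.1, 68.0 and 70.9 CPM in vehicle with C3a, 74.9, 79.6 and 81.1 CPM in palmitate, and 75.3, 77.0 and 85.5 CPM in palmitate with C3a. It rose by 0.13 ± 0.04 (adjusted p = 0.0194), and the call ended without vehicle with C3a replicate 2 (adjusted p = 0.0536). Without C3a the effect was 0.08 ± 0.06 and did not pass (adjusted p = 0.329). Batch 2 alone gave 0.18 ± 0.05 (adjusted p = 0.0208), while the log2 ratio of mean CPM in batch 1 was 0.03.

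Srsf6 (chr2:162931528-162937121), an SR protein of constitutive and alternative splicing, was the SR gene that fell. It had 141, 175 and 163 CPM in vehicle, 158, 176 and 176 CPM in vehicle with C3a, 122, 160 and 155 CPM in palmitate, and 132, 159 and 168 CPM in palmitate with C3a. Each palmitate library lay below the vehicle library of its number, in 6 of 6 pairs, while the groups overlapped because replicate 1 was low in each. It fell by 0.15 on the log2 scale (SE 0.04, adjusted p = 0.00661). In batch 2 alone the fitted value was -0.10 ± 0.04 (adjusted p = 0.103), and the log2 ratio of mean CPM in batch 1 was -0.24. The SR genes that did not pass lay between -0.02 ± 0.04 (Srsf1) and 0.10 ± 0.05 (Srsf5), with Srsf3, Srsf9 and Srsf11 between.

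Of the 20 hnRNP genes, 6 rose, 5 fell and 9 did not pass, with a median log2 fold change of 0.00115. That is 55.0% called, against 39.7% of all genes tested. Hnrnpa3 (chr2:75659261-75669407), an A/B-type hnRNP, had 214, 348 and 332 CPM in vehicle, 225, 344 and 345 CPM in vehicle with C3a, 264, 429 and 425 CPM in palmitate, and 276, 411 and 413 CPM in palmitate with C3a. The groups overlapped over all 12 libraries because batch 1 was low throughout, but within each batch every palmitate library lay above every vehicle library. The rise was 0.30 ± 0.03 (adjusted p = 8.77e-06). Batch 2 alone gave a fitted value of 0.30, and the log2 ratio of mean CPM in batch 1 was also 0.30.
Hnrnpf (chr6:117900324-117925622), which binds G-rich sequences, had 239, 258 and 246 CPM in vehicle, 234, 239 and 250 CPM in vehicle with C3a, 278, 279 and 276 CPM in palmitate, and 273, 276 and 279 CPM in palmitate with C3a. The ranges did not overlap, and it rose by 0.18 ± 0.03 (adjusted p = 0.000315).
Hnrnpd, also known as Auf1, a binder of AU-rich elements, had 67.9, 110 and 106 CPM in vehicle, 69.6, 106 and 107 CPM in vehicle with C3a, 77.1, 115 and 120 CPM in palmitate, and 84.1, 118 and 119 CPM in palmitate with C3a. It rose by 0.17 ± 0.03 (adjusted p = 0.000996) in 6 of 6 pairs. Hnrnpab had 159, 259 and 246 CPM in vehicle, 169, 248 and 245 CPM in vehicle with C3a, 194, 263 and 283 CPM in palmitate, and 182, 269 and 284 CPM in palmitate with C3a. It rose by 0.16 ± 0.03 (adjusted p = 0.00325), again in 6 of 6 pairs with replicate 1 lowest in each group.
Hnrnph2, a paralog of Hnrnph1 and Hnrnpf, had 83.1, 97.5 and 87.6 CPM in vehicle, 78.4, 91.4 and 89.0 CPM in vehicle with C3a, 85.5, 105 and 102 CPM in palmitate, and 85.9, 102 and 99.1 CPM in palmitate with C3a, and rose by 0.13 ± 0.03 (adjusted p = 0.00747). Hnrnpdl, a paralog of Hnrnpd, had 90.6, 135 and 123 CPM in vehicle, 93.4, 123 and 124 CPM in vehicle with C3a, 107, 134 and 130 CPM in palmitate, and 106, 130 and 146 CPM in palmitate with C3a. Its rise of 0.13 ± 0.04 (adjusted p = 0.0231) was the least stable of these: the call ended without vehicle replicate 1 (0.0706) or 3 (0.0514), vehicle with C3a replicate 1 (0.0535) or palmitate replicate 1 (0.0622).

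Hnrnpr (chr4:136310942-136359447), an hnRNP with neuronal roles in messenger RNA transport, had 88.0, 86.5 and 88.7 CPM in vehicle, 91.5, 90.6 and 89.8 CPM in vehicle with C3a, 77.7, 76.0 and 75.5 CPM in palmitate, and 72.7, 74.3 and 73.1 CPM in palmitate with C3a. Every palmitate library lay below every vehicle library, and it fell by 0.25 on the log2 scale (SE 0.03, adjusted p = 1.29e-05).
Hnrnpa2b1 (chr6:51460932-51469894), which had the highest TPM of the 49 genes in vehicle, had 517, 510 and 478 CPM in vehicle, 524, 480 and 481 CPM in vehicle with C3a, 411, 425 and 429 CPM in palmitate, and 415, 406 and 449 CPM in palmitate with C3a. The ranges did not overlap, and it fell by 0.24 (SE 0.04, adjusted p = 0.000432). Hnrnpa2b1 and its A/B-type relative Hnrnpa3 thus moved in opposite directions in both palmitate comparisons.
Hnrnpm had 141, 141 and 143 CPM in vehicle, 146, 137 and 145 CPM in vehicle with C3a, 128, 117 and 134 CPM in palmitate, and 128, 124 and 127 CPM in palmitate with C3a, without overlap. It fell by 0.17 (SE 0.04, adjusted p = 0.00219). Hnrnpul2 had 200, 230 and 229 CPM in vehicle, 212, 222 and 220 CPM in vehicle with C3a, 192, 207 and 205 CPM in palmitate, and 192, 208 and 197 CPM in palmitate with C3a. It fell by 0.13 (SE 0.03, adjusted p = 0.00436) in 6 of 6 pairs. The remaining called hnRNP gene was Hnrnph1, which fell by 0.11 (SE 0.04, adjusted p = 0.0398). The 9 that did not pass lay between -0.11 ± 0.05 (Hnrnph3) and 0.08 ± 0.03 (Hnrnpa1), and Hnrnpk, second to Hnrnpa2b1 in TPM in vehicle, had 0.00421 ± 0.0266.

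Among the 18 other factors, 3 rose, 3 fell and 12 did not pass, with a median log2 fold change of -0.04. That is 33.3% called, below the 39.7% of all genes tested. The largest falls were in a pair of neuronal-type factors. Elavl4 (HuD, chr4:110203722-110351909), which stabilises and splices neuronal messenger RNAs, had 34.9, 38.4 and 38.6 CPM in vehicle, 30.5, 38.1 and 37.5 CPM in vehicle with C3a, 22.5, 26.6 and 26.4 CPM in palmitate, and 22.6, 27.9 and 27.0 CPM in palmitate with C3a. Every palmitate library lay below every vehicle library. It fell by 0.51 on the log2 scale (SE 0.03, adjusted p = 7.26e-07) (a change of -29.8%), with -0.57 ± 0.05 without C3a and -0.45 ± 0.05 with C3a.
Nova2 (chr7:18925888-18965319), which binds YCAY clusters in neuronal transcripts, had 14.1, 17.2 and 16.0 CPM in vehicle, 14.0, 16.1 and 15.9 CPM in vehicle with C3a, 8.77, 10.8 and 12.6 CPM in palmitate, and 9.49, 11.4 and 11.6 CPM in palmitate with C3a. The ranges did not overlap, and it fell by 0.53 (SE 0.05, adjusted p = 1.60e-05). Its paralog Nova1 had -0.03 ± 0.06 and did not pass (adjusted p = 0.713).
Cell type markers were read as well, where 39.7% of all genes tested were called in the average palmitate effect (20.3% higher and 19.4% lower). Of 8 beta cell markers, 5 fell (Slc30a8, Pdx1, Slc2a2, Nkx6-1 and Ins2) and none rose, and their summed level ran from 158000 to 183000 CPM in vehicle and from 143000 to 174000 CPM in palmitate, which overlap. With C3a it ran from 170000 to 191000 CPM in vehicle and from 133000 to 163000 CPM in palmitate, without overlap. Of 10 Schwann cell and neuron markers, 3 fell and 1 rose, with a summed vehicle level of 194 to 208 CPM against 189 to 221 CPM with palmitate, and of 199 to 226 against 190 to 229 CPM where C3a was added. Of 13 endothelial markers, 11 fell and none rose, summing to 274 to 375 CPM in vehicle against 150 to 273 CPM in palmitate without overlap, and to 252 to 342 against 158 to 282 CPM in the groups with C3a. Their part in the falls of Elavl4 and Nova2 was not tested.

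Celf2, a CELF protein of brain and muscle, had 36.9, 35.5 and 34.5 CPM in vehicle, 33.1, 37.5 and 36.9 CPM in vehicle with C3a, 27.9, 36.2 and 29.5 CPM in palmitate, and 31.3, 32.7 and 31.0 CPM in palmitate with C3a. Palmitate replicate 2 lay within the vehicle range. It fell by 0.19 (SE 0.06, adjusted p = 0.0223), and the call ended without vehicle replicate 1 (0.0656), vehicle with C3a replicate 2 (0.0535), palmitate replicate 1 (0.0631) or palmitate replicate 3 (0.0555). Ptbp1 had 214, 213 and 227 CPM in vehicle, 212, 228 and 234 CPM in vehicle with C3a, 231, 243 and 240 CPM in palmitate, and 227, 240 and 258 CPM in palmitate with C3a, and rose by 0.12 ± 0.03 (adjusted p = 0.0119) in 6 of 6 pairs. In batch 2 alone its adjusted p was 0.0610.
The other neuroendocrine factors did not pass. Celf3, the most abundant of them, had -0.04 ± 0.03, Celf4 -0.04 ± 0.04, Rbfox2 -0.07 ± 0.03 and Ptbp2 0.01 ± 0.07. Srrm3, an activator of neuronal microexons, had -0.14 ± 0.07 (adjusted p = 0.173), and its relative Srrm4 had 0.12 ± 0.28 at low counts. The remaining values were -0.68 ± 0.38 for Rbfox1, -0.34 ± 0.17 for Celf5, -0.08 ± 0.04 for Celf1, 0.08 ± 0.05 for Celf6 and 0.02 ± 0.06 for Rbm4.

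The Tra2 genes encode SR-like proteins that bind GAA-rich exonic enhancers, and both rose without overlap. Tra2a (chr6:49243924-49264033) had 30.7, 34.1 and 32.8 CPM in vehicle, 31.6, 28.8 and 30.0 CPM in vehicle with C3a, 36.6, 37.2 and 39.0 CPM in palmitate, and 36.5, 37.9 and 38.9 CPM in palmitate with C3a. It rose by 0.27 ± 0.04 (adjusted p = 0.000189). Tra2b (chr16:22244549-22266005) had 89.0, 92.1 and 92.3 CPM in vehicle, 89.2, 88.4 and 90.6 CPM in vehicle with C3a, 102, 106 and 108 CPM in palmitate, and 101, 102 and 105 CPM in palmitate with C3a. It rose by 0.20 ± 0.03 (adjusted p = 8.40e-05).
Of the 49 genes, 9 had palmitate and vehicle libraries that did not overlap, against 17.3% of all genes tested. They were Srsf12, Tra2a, Tra2b, Hnrnpf, Hnrnpm, Hnrnpa2b1, Hnrnpr, Elavl4 and Nova2.

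**Figure D3:**
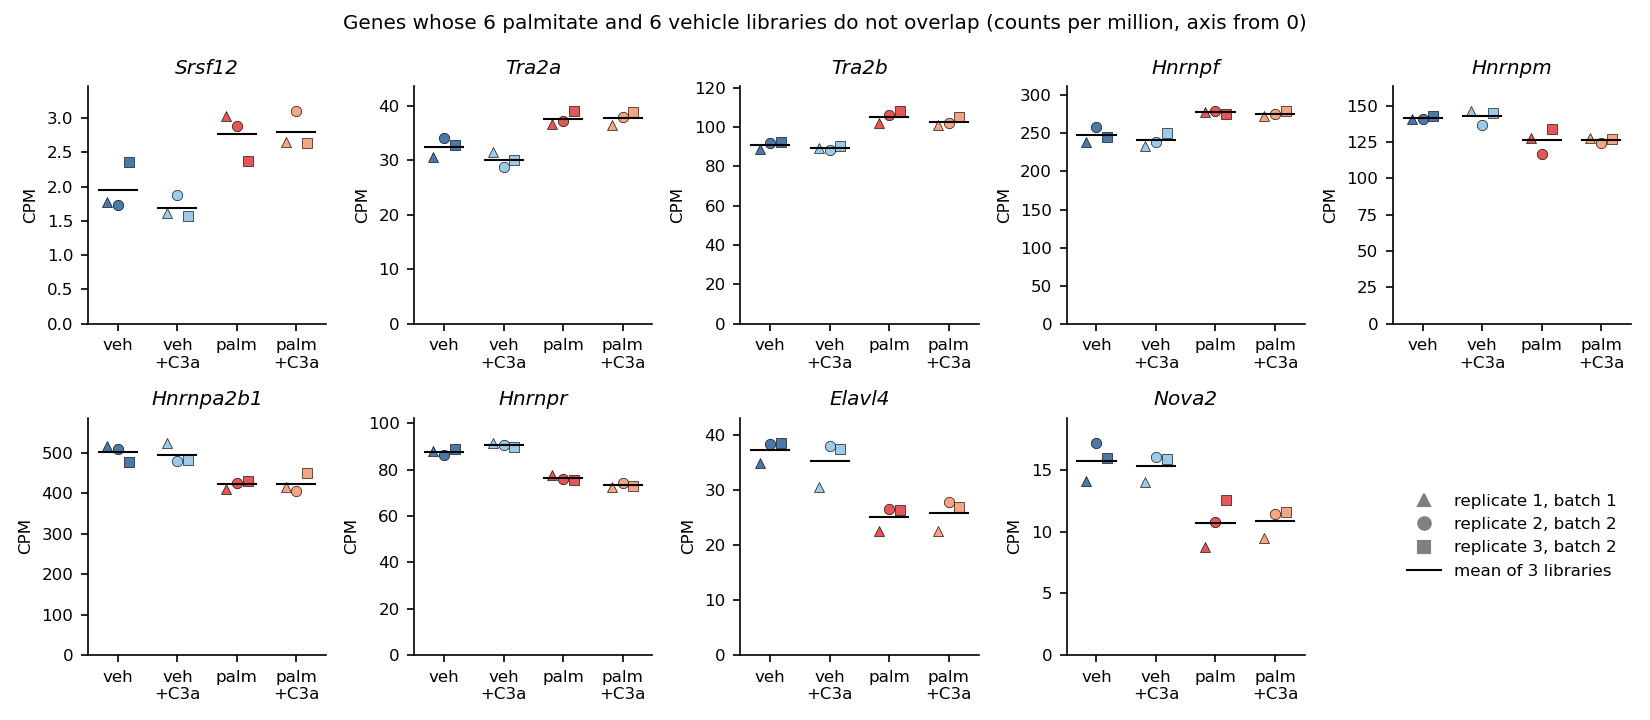
CPM in each of the 12 libraries (axis from 0) for the 9 genes whose 6 palmitate and 6 vehicle libraries did not overlap, ordered by fold change. Symbols mark the replicate number and lines the mean of 3 libraries. In Elavl4 the vehicle libraries lie between 30.5 and 38.6 CPM and the palmitate libraries between 22.5 and 27.9 CPM.

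The next question was which transcripts carried these changes. The table held 317 transcripts of the 49 genes, 67 of them of SR genes: 27 protein-coding, 17 with a retained intron, 12 other processed transcripts and 11 of the nonsense-mediated decay class. GENCODE M21 annotates 468 transcripts of the 49 genes, so the table leaves out some of them. Gene sums, TPM and shares cover only the transcripts held. Srsf7, Tra2a, Nova2 and 5 others of the 49 had 1 transcript in the table and so no shares. Most of these have more in the annotation, as with Srsf7 (8), Tra2a (5) and Celf3 (15). Transcript counts are estimates for molecules that share exons, and the error of that assignment is not in the standard errors below.
The decay transcript of Tra2b rose. Tra2b-206, which carries the poison exon printed above, had 15.6, 21.2 and 17.3 CPM in vehicle, 17.4, 21.7 and 25.2 CPM in vehicle with C3a, 28.3, 32.8 and 29.8 CPM in palmitate, and 26.7, 37.7 and 27.1 CPM in palmitate with C3a. Every palmitate library lay above every vehicle library. Tested as a transcript, it had a log2 rise of 0.62 ± 0.09 (adjusted p from edgeR = 0.00284), where 10.4% of the 41537 transcripts tested were called. Leaving out each library in turn gave 0.54 to 0.69 with adjusted p from 0.00177 to 0.0119, and batch 2 alone gave 0.59 (adjusted p = 0.0707).
The main coding transcript Tra2b-204 had 56.0, 53.6 and 52.6 CPM in vehicle, 54.6, 52.8 and 51.3 CPM in vehicle with C3a, 56.7, 60.6 and 66.8 CPM in palmitate, and 56.6, 56.6 and 63.0 CPM in palmitate with C3a. Every palmitate library lay above every vehicle library, if only slightly, but the value of 0.16 ± 0.06 did not pass (adjusted p = 0.143). The other coding transcript, Tra2b-201, had 11.3 to 19.3 CPM in the vehicle libraries and 3.76 to 14.1 CPM in the palmitate libraries. It went the other way, at -0.55 ± 0.26, and did not pass (adjusted p = 0.261). With protein-coding transcripts alone summed per gene, Tra2b had 0.06 ± 0.05 (adjusted p = 0.398), and no call remained.
As a share of the gene's counts, Tra2b-206 made up 17.5% to 27.8% in the vehicle libraries and 25.7% to 37.1% in the palmitate libraries. The share did not pass with limma (adjusted p = 0.250 over 14531 transcripts). The summed decay share of Tra2b, tested over 1420 genes, did not pass with limma either (adjusted p = 0.523). It passed with edgeR's diffSpliceDGE (adjusted p = 0.0307, with 0.634% of the 1420 genes called). The transcripts tested here one by one, of Tra2b, Srsf3, Srsf6 and Hnrnpf, were chosen after their shares were seen.

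In Srsf6 the coding transcript fell, and the decay transcript did not pass. Srsf6-203 had 95.3, 121 and 110 CPM in vehicle, 106, 122 and 117 CPM in vehicle with C3a, 76.2, 104 and 101 CPM in palmitate, and 74.7, 98.5 and 106 CPM in palmitate with C3a. It fell by 0.28 (SE 0.05, adjusted p = 0.0113), which did not pass in batch 2 alone (-0.19, adjusted p = 0.108). Srsf6-201, the decay transcript, had 27.2, 36.8 and 39.0 CPM in vehicle, 33.3, 41.0 and 46.6 CPM in vehicle with C3a, 27.2, 39.5 and 40.4 CPM in palmitate, and 35.8, 47.5 and 45.4 CPM in palmitate with C3a. Its value was 0.06 ± 0.05 (adjusted p = 0.535).
Summed over protein-coding transcripts alone, Srsf6 fell by 0.26 (SE 0.05, adjusted p = 0.00123), against 0.15 over all transcripts. The share of Srsf6-203 was 66.4% to 69.3% in the vehicle libraries and 56.6% to 65.1% in the palmitate libraries, without overlap (1.38% of all transcripts tested did not overlap), yet limma did not call it (adjusted p = 0.250).
Srsf3, which encodes the smallest SR protein, had no change in its gene total that passed. Its decay transcript Srsf3-201 had 23.2, 25.5 and 30.3 CPM in vehicle, 31.6, 26.1 and 27.9 CPM in vehicle with C3a, 29.2, 31.3 and 35.1 CPM in palmitate, and 32.2, 36.4 and 34.2 CPM in palmitate with C3a. The value was 0.26 ± 0.08 (adjusted p = 0.0955 with edgeR and 0.0237 with DESeq2). Its share was 17.2% to 24.0% in vehicle and 22.5% to 28.4% in palmitate. The coding transcript Srsf3-202 had -0.07 ± 0.06 (adjusted p = 0.573).

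**Figure D4:**
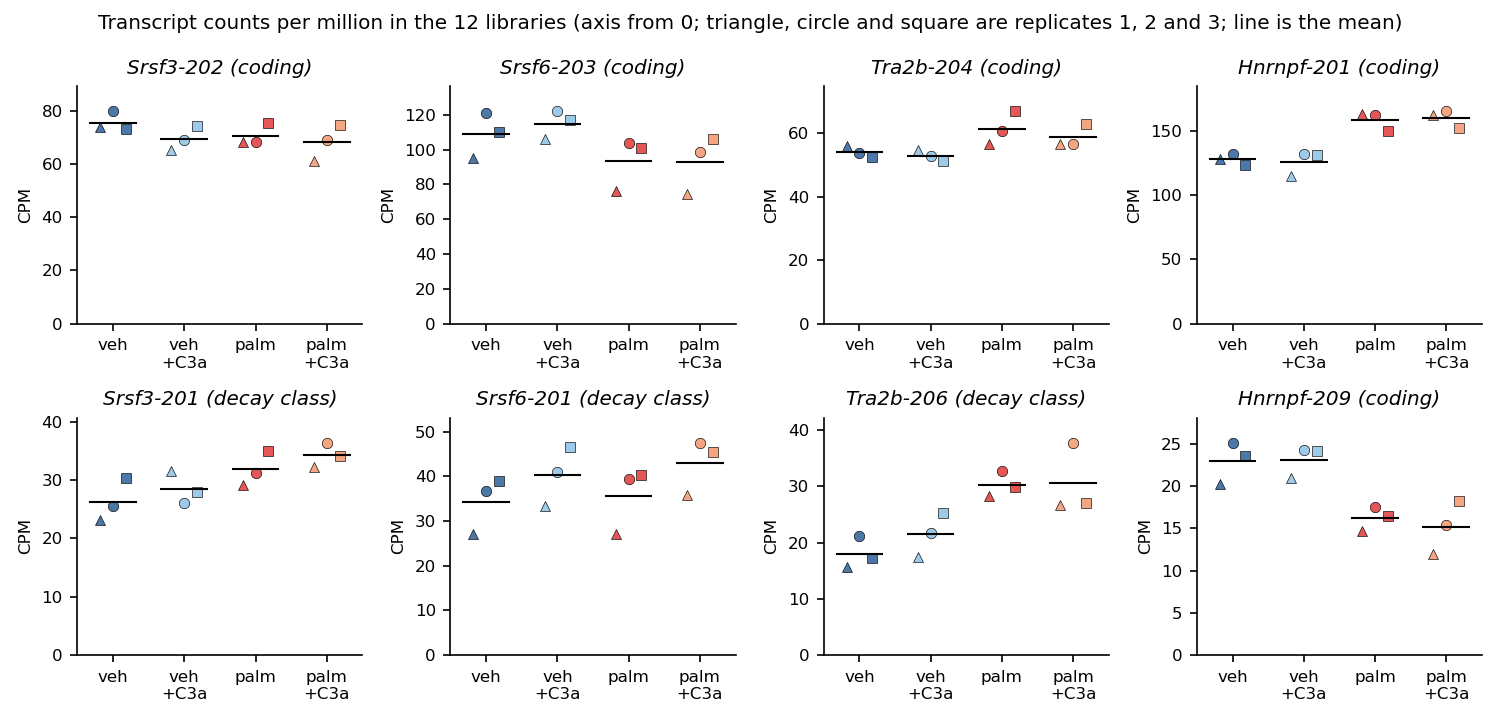
CPM of 8 transcripts in the 12 libraries (axis from 0), with the coding transcript above and the decay-class or second coding transcript below for Srsf3, Srsf6, Tra2b and Hnrnpf. Tra2b-206 lies between 15.6 and 25.2 CPM in vehicle and between 26.7 and 37.7 CPM in palmitate.

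Over the SR family as a whole, 32 transcripts of 9 genes could be tested for their share and none was called in the average palmitate effect, by limma (6 had an unadjusted p under 0.05) or by diffSpliceDGE (none did). Of all 14531 transcripts tested, limma called 0.117% and diffSpliceDGE 0.234%, so calls were few everywhere. The smallest p of the 32 with limma belonged to Srsf10-205, a coding transcript with 20.6% to 28.9% of the gene in vehicle and 16.3% to 22.2% in palmitate (adjusted p = 0.240). Its counterpart Srsf10-204 had 36.0% to 54.0% in vehicle and 49.8% to 54.7% in palmitate (adjusted p = 0.305).
The summed decay share could be tested in 18 of the 49 genes, 6 of them SR genes, and limma called none (0.0% of 1420 genes). With limma, 1 of the 18 had an unadjusted p under 0.05. With diffSpliceDGE these were 3 of the 18 (16.7%, against 6.62% of all genes tested). They were Tra2b, which was called, and Srsf6 (adjusted p = 0.347) and Srsf3 (adjusted p = 0.406), which were not. The limma value was higher with palmitate in 14 of the 18, or 77.8%, against 57.4% of all genes tested. Retained-intron shares of 7 SR genes were not called either, by limma or by diffSpliceDGE (each called 0.0357% of 2805 genes). An unadjusted p under 0.05 was reached by none of the 7 with limma and by 1 with diffSpliceDGE. Retained-intron transcripts of Srsf11 made up 28.8% to 40.8% of the gene's counts in the vehicle libraries and 28.6% to 50.5% in the palmitate libraries.

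Hnrnpf showed opposite changes in transcripts that share the same 1245-base coding sequence (chr6:117923757-117925001). They differ in the first exon and in the number of exons, 4 in Hnrnpf-201 and 3 in Hnrnpf-209. The gene had 10 transcripts in the table, and its others are not shown here. Hnrnpf-201, whose first exon is chr6:117906795-117906839, had 128, 132 and 123 CPM in vehicle, 115, 132 and 131 CPM in vehicle with C3a, 163, 162 and 150 CPM in palmitate, and 162, 165 and 152 CPM in palmitate with C3a. It rose by 0.32 ± 0.04 (adjusted p = 0.00114). Hnrnpf-209, whose first exon is chr6:117917294-117917598, had 20.3, 25.1 and 23.6 CPM in vehicle, 20.9, 24.3 and 24.2 CPM in vehicle with C3a, 14.7, 17.5 and 16.5 CPM in palmitate, and 12.0, 15.4 and 18.2 CPM in palmitate with C3a. It fell by 0.57 (SE 0.06, adjusted p = 0.000675).
Neither transcript's palmitate libraries overlapped its vehicle libraries, and both calls held without each library in turn. The share of Hnrnpf-209 was 8.50% to 10.2% in the vehicle libraries and fell to between 4.41% and 6.53% in the palmitate libraries (limma adjusted p = 0.0310). That share call ended with a replicate block (0.0696), in batch 2 alone (0.296) and on leaving out each library but palmitate with C3a replicate 3 (0.0734 to 0.140).

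C3a was the other question. In edgeR none of the 49 genes was called for C3a within vehicle or within palmitate, nor for the interaction of C3a and palmitate, as was true of all 15794 genes (0.0% called), and DESeq2 called none of the 49 either. The number with an unadjusted p under 0.05 was 0 within vehicle, 1 within palmitate and 0 for the interaction. That gene was Srsf5, with 142, 207 and 193 CPM in palmitate and 171, 216 and 228 CPM in palmitate with C3a (0.19 ± 0.07, unadjusted p = 0.0166). The hnRNP genes lay between -0.05 and 0.05 within vehicle and between -0.06 and 0.08 within palmitate on the log2 scale, with standard errors of 0.04 to 0.06. SR genes lay between -0.21 (Srsf12) and 0.12 (Srsf2) within vehicle. No SR transcript share was called for C3a by limma, and none had an unadjusted p under 0.05 within vehicle or within palmitate. The same held for diffSpliceDGE.

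The genes that act on these factors were read from lists chosen with earlier results of these data known. Of 10 SR protein kinase and phosphatase genes, 4 rose in the average palmitate effect and 1 fell, where 39.7% of all genes were called (20.3% higher and 19.4% lower). Clk4, a nuclear kinase of SR proteins, rose by 0.36 ± 0.06 (adjusted p = 0.000718), Clk3 by 0.14 ± 0.04 and Ppp1r8, a regulator of nuclear phosphatase, by 0.23 ± 0.04. Srpk3 rose by 1.15 ± 0.32 and Srpk2, a cytoplasmic SR kinase, fell by 0.16 (SE 0.04). Of 46 core spliceosome genes, 12 rose and 4 fell (median 0.06), or 34.8%, below the share of all genes. U2af1 rose by 0.25 ± 0.04 and U2af2 by 0.19 ± 0.03, both subunits of the factor that recognises the 3′ splice site, while Cdc5l, of the Prp19 complex, fell by 0.28 (SE 0.03). Of 44 other splicing regulators, 7 rose and 7 fell, or 31.8%.
Of 19 nonsense-mediated decay and exon junction genes, 5 fell and 1 rose (median -0.05), or 31.6%, also below the 39.7% of all genes. Those that fell were the decay factors Upf3b (by 0.42, SE 0.04), Smg6 (by 0.30, SE 0.05), Upf2 (by 0.30, SE 0.05), Upf1 (by 0.22, SE 0.03) and Smg5 (by 0.13, SE 0.03). Rnps1, an exon junction protein, rose by 0.22 ± 0.03. The part of these genes in the level of the Tra2b and Srsf6 transcripts was not tested.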

How the data were processed

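Messenger RNA of 12 islet libraries was sequenced with a strand-marking kit, per the labels' protocols. The values used are estimated counts per transcript that the authors deposited, not normalized; per the submitters' processing notes, kallisto, DESeq2 and GRCm38 were used, with no version named. Transcriptome release and strand setting: not given in the sources used here. Reads of overlapping, antisense or near-identical genes may therefore be split wrongly.

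Of 71524 transcripts, 69942 matched GENCODE M21 by identifier. The 1582 unmatched ones held 0.581% to 0.677% of counts. Counts were summed per gene and rounded, filtered by edgeR's filterByExpr (15794 genes) and TMM-scaled (factors 0.967 to 1.045). The robust quasi-likelihood fit (edgeR 4.0.16, R 4.3.3) had group and sequencing batch as terms over all 12 libraries (7 residual degrees of freedom). There were 6 comparisons: both palmitate effects, their average, both C3a effects and the interaction. Calls are at an adjusted p under 0.05 (Benjamini-Hochberg over all genes tested). Tests were two-sided. Values after ± in log2 fold changes are SEs, taken as |log2 fold change| over the root of the F statistic. CPM refer to the TMM-scaled library size, and TPM used annotated transcript lengths.

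Transcript shares were tested with limma 3.58.1 on the logit of the share (0.5 added to the counts), for transcripts with a mean share of 5% to 95% in genes of at least 5 mean CPM, and decay and retained-intron classes for genes with a mean class share of 1% to 99%. Alternatives were RLE scaling, DESeq2 1.42.0, no low-count filter, no batch term, batch 2 only, a replicate block, protein-coding transcripts only, other share settings, edgeR's diffSpliceDGE and leaving out each library. Scripts were tested on simulated data.

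Numbers were taken to pair the libraries: number 1 marks batch 1, and the tags of numbers 2 and 3 look like dates and recur in all 4 groups. Deviations from the group mean correlated at 0.395 or more over 18 same-number pairs. Those means span both batches, so the correlation also holds the batch difference and cannot show pairing. Within batch 2, where the 2 libraries of a group mirror each other, the 6 distinct values were 0.0799 to 0.1848. Members and lists were chosen with earlier results of these data known. The average palmitate effect called 39.7% of all genes tested, 20.3% higher and 19.4% lower. Library values are given for called members with at least 1 mean CPM, up to 8 SR and 10 hnRNP genes by size of the average palmitate effect and all others. The marker lists were beta (5 of 8 fell), alpha (1 rose and 2 fell of 6), delta (1 of 3 fell), endothelial (11 of 13 fell), macrophage (2 rose and 1 fell of 12), fibroblast and pericyte (4 of 10 fell), acinar (none of 12 called), duct (1 of 6 rose), Schwann cell and neuron (1 rose and 3 fell of 10) and proliferation (2 of 9 rose), counted in the average palmitate effect.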

Additional observations from a re-analysis of the deposited data

How the results depend on the processing

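For the average palmitate effect, 14 genes higher and 9 lower became 5 and 5 without a batch term, and 13 to 16 and 7 to 11 when each library was left out. Palmitate against vehicle had 7 higher and 6 lower. Without a batch term 1 was higher, in batch 2 alone 2 were higher and 3 lower, and leave-one-out gave 3 to 9 and 4 to 7. Palmitate with C3a against vehicle with C3a had 11 and 7. Without a batch term these were 4 and 4, in batch 2 alone 3 and 3, and leave-one-out gave 6 to 13 and 3 to 8. With the replicate block the counts were 10 and 7, 12 and 7, and 15 and 11 for the average, where 0 genes were called for C3a. The block changed no call of a named gene in the average. Of the 22 named genes in the average, 19 passed without each library in turn and none changed sign under any alternative. Under the alternatives other than leaving out a library, such as no batch term or batch 2 only, 13 of the 22 lost their call at least once. The call of the other 9 held under all of these. The share of Tra2b-204 changed sign in batch 2 alone (0.0331, adjusted p = 0.949), from -0.06. Changes under about 10% in a gene's level lie near what 3 libraries a group resolve. The cause of these shifts was not tested.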

Other observations

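Some isoforms differed sharply between libraries of one group. Rbfox2-204 took 0.0% of the gene in 3 libraries of batch 1 and 2.39% in the remaining one, and 22.8% to 37.9% in batch 2. Srsf5-203 took 0.0% in batch 1 and 5.94% to 13.9% in batch 2. Srrm4-203, annotated with a retained intron, took 0.0% in replicate 2 of vehicle, of vehicle with C3a and of palmitate with C3a and 5.68% in replicate 2 of palmitate, against 26.1% to 65.7% in replicates 1 and 3. These transcripts were picked after their values were seen.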
